A study of Mus musculus with 2 samples.

Results

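The genes of elastic fibres were followed in single cells sorted from the dermis of healing mouse skin wounds. Their 10 members were taken by symbol from the 27998 genes of the count matrices. They are *Eln* (elastin), the cross-linking enzyme gene *Lox*, the fibrillin genes *Fbn1* and *Fbn2*, the microfibril-associated gene *Mfap4*, and the fibulin genes *Fbln1*, *Fbln2*, *Fbln5*, *Fbln7* and *Efemp1*. Each symbol occurred once, and all 10 had at least 50 UMIs over the fibroblasts of both libraries, the minimum for a call.

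Elastic fibres give skin its recoil and consist of a core of cross-linked elastin on a scaffold of fibrillin microfibrils. Cells secrete soluble tropoelastin, which fibulins and microfibril-associated proteins help to gather on the microfibrils and which lysyl oxidases cross-link into an insoluble polymer. In skin they are laid down mainly by dermal fibroblasts, while blood vessels receive theirs from endothelial and smooth muscle cells, and scars are known for sparse and disordered elastic fibres.

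Wounds of mice aged 4 to 5 weeks were compared between 2 genotypes, with 1 library each. Control mice carried *SM22rtTA*, *tetO-Cre* and *R26-Tomato*, and *SM22-SmoM2* mice carried *SM22rtTA*, *tetO-Cre* and *R26-SmoM2/Tomato*, so that only the latter expressed SmoM2, an activated form of the Hedgehog (Hh) signal transducer Smoothened. All mice received doxycycline at 20 g per kg from post-wound day 1 until 3 days after complete re-epithelialization, and Tomato+ dermal cells were sorted for 10x 3′ v2 sequencing. The SM22α promoter, that of *Tagln*, drives rtTA in both genotypes, and the comparison asks how Hh activation in cells with a history of this promoter alters the wound dermis. By the study's description, wounds of several mice were used for each genotype, and each library held male and female cells. With 1 library per genotype, library and genotype cannot be told apart and no p-value is given. Intervals are exact 95% intervals that cover counting error only.

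After filtering, 2856 control cells and 1792 *SM22-SmoM2* cells were kept, with 30103855 and 17814222 UMIs (unique molecular identifiers, 1 for each captured transcript). Levels are given in CPM, the UMIs of a gene per 1000000 UMIs of all genes in the same class of cells. Fibroblasts numbered 1097 in the control and 1050 in the *SM22-SmoM2* library, with medians of 12465 and 11185.5 UMIs per cell. All 7 fibroblast markers were above 10 CPM in both, summing to 73494 and 47161 CPM. Single markers differed between libraries too: *Dcn* was at 7519 and 3083 CPM and *Col1a1* at 23181 and 16060 CPM. *Lum* was at 4305 and 1499 CPM and *Dpt* at 1311 and 385 CPM. The marker lists of other lineages summed to between 0.352 and 114 CPM in fibroblasts, that of immune cells to 114 and 34.9 CPM and that of melanocytes to 17.0 and 0.741 CPM (*Dct*, *Tyrp1* and *Mlana* at 0 in *SM22-SmoM2*). The part of these genes in the differences reported here was not tested. *Ptch1*, an Hh receptor and target gene, was at 12.1 CPM in control against 142 CPM in *SM22-SmoM2* fibroblasts, a log2 ratio of +3.55.

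In fibroblasts, 3 of the 10 members were lower past 2-fold in the *SM22-SmoM2* library and 0 were higher, beside 5.16% of the 11482 genes tested that were lower, 4.57% that were higher and 9.74% past 2-fold in either direction. The 3 were *Eln*, *Fbln7* and *Efemp1*. The intervals of 9 members lay below 0 and that of *Fbn2* lay above 0. The share of all genes with an interval off 0 was not counted, and these intervals cover counting error only. The median log2 ratio of the members was -0.75, beside -0.09 over all genes tested. The fibroblast markers *Dcn* (-1.29), *Lum* (-1.52) and *Dpt* (-1.77) were further below 0 than this median, and *Col1a1* (-0.53) was nearer to 0.

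*Eln* encodes the elastic core itself (chr5:134702593-134747323, minus strand, GRCm38). Control fibroblasts held 4165 *Eln* UMIs and *SM22-SmoM2* fibroblasts 571, or 293 and 47.0 CPM, a log2 ratio of -2.64 (interval -2.77 to -2.51), 6.23-fold lower. The *Eln* UMIs were very unevenly spread over cells. In the *SM22-SmoM2* library, 1 fibroblast held 383 of the 571 UMIs (67.1%) and the next highest 38. In the control library the highest cell held 894 of 4165 (21.5%) and the next 200. Without the highest cell of each library, which was done after the values had been seen, *Eln* was at 231 CPM in control against 15.5 CPM in *SM22-SmoM2* fibroblasts, and the log2 ratio was -3.90 (-4.12 to -3.68), 14.9-fold lower. The outlying *SM22-SmoM2* cell had 16530 UMIs in all, 334 of *Col1a1*, 154 of *Mfap4* and 0 of *Ptch1*.

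Fewer cells had any *Eln* UMI in the *SM22-SmoM2* library: 86 of 1050 (8.19%), against 331 of 1097 (30.2%) in the control. When each cell was thinned to 1500 UMIs the shares were 2.38% (1.55 to 3.49) and 11.6% (9.74 to 13.6). In Schwann cells, which are not known to make elastin, the thinned shares were 0.680% and 1.18%, and the unthinned shares 0.680% and 3.39% at medians of 5545.5 and 5963 UMIs. Of the control *Eln* UMIs, 50% lay in 13 cells, and the 10 highest cells held 46.7%. In the *SM22-SmoM2* library the 10 highest cells held 85.1%. For the 7 members other than *Eln*, *Fbln7* and *Efemp1*, 50% of the UMIs lay in 124 to 238 cells, and the highest cell held at most 1.22% of them (20 of 1640, *Fbln5*, *SM22-SmoM2*).

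**Figure D1:**
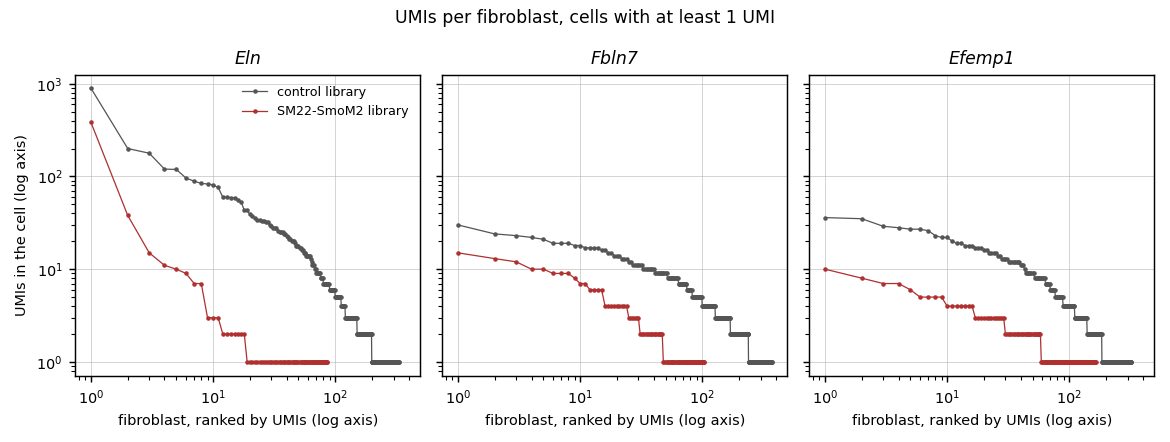
UMIs per fibroblast of *Eln*, *Fbln7* and *Efemp1* for every cell with at least 1 UMI (vertical log axis), ranked from the highest cell (horizontal log axis), in the control (grey) and *SM22-SmoM2* (red) libraries. For *Eln* the highest cell stands apart in both libraries, at 894 and 383 UMIs, whereas for *Fbln7* (30 and 15) and *Efemp1* (36 and 10) the ranks decline gradually.

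*Lox* encodes lysyl oxidase, which cross-links elastin and collagen. It was at 384 CPM in control against 301 CPM in *SM22-SmoM2* fibroblasts (5462 and 3660 UMIs), a log2 ratio of -0.35 (-0.41 to -0.29). *Lox* thus stayed within 2-fold, with UMIs in 86.4% of control and 78.9% of *SM22-SmoM2* fibroblasts.

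The fibrillin genes, whose products form the microfibril scaffold, lay on opposite sides of 0. *Fbn1* (chr2:125300594-125507993) was at 582 CPM in control against 313 CPM in *SM22-SmoM2* fibroblasts, a log2 ratio of -0.89 (-0.95 to -0.84). *Fbn2*, known best from developing tissue, was at 127 and 202 CPM, a log2 ratio of +0.66 (0.58 to 0.75), and was the only member with a higher level in the *SM22-SmoM2* library. After thinning, 17.0% of control and 24.7% of *SM22-SmoM2* fibroblasts had an *Fbn2* UMI, and 45.4% and 32.3% an *Fbn1* UMI.

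*Mfap4* encodes a fibrinogen-related protein that binds fibrillin and tropoelastin (chr11:61485431-61488900). It was at 2176 CPM in control against 1224 CPM in *SM22-SmoM2* fibroblasts (30905 and 14865 UMIs), a log2 ratio of -0.83 (-0.86 to -0.80). The shares of cells with an *Mfap4* UMI after thinning were within each other's intervals, at 64.9% (62.0 to 67.7) of control and 64.2% (61.2 to 67.1) of *SM22-SmoM2* fibroblasts.

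Among the fibulins, which bridge elastin, fibrillin and cell surfaces, *Fbln1*, *Fbln2* and *Fbln5* were lower by less than 2-fold. *Fbln1* was at 172 and 138 CPM, a log2 ratio of -0.32 (-0.41 to -0.23). *Fbln2* was at 625 and 395 CPM, a log2 ratio of -0.66 (-0.71 to -0.61). *Fbln5*, whose product guides tropoelastin onto microfibrils, was at 214 and 135 CPM, a log2 ratio of -0.67 (-0.75 to -0.58).

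*Fbln7* and *Efemp1* were past 2-fold. *Fbln7*, a cell-adhesive fibulin, was at 106 CPM in control against 22.9 CPM in *SM22-SmoM2* fibroblasts (1507 and 278 UMIs), a log2 ratio of -2.21 (-2.40 to -2.03), 4.63-fold lower. *Efemp1*, which encodes fibulin-3, was at 103 and 23.8 CPM (1461 and 289 UMIs), a log2 ratio of -2.11 (-2.30 to -1.93), 4.32-fold lower. For both, fewer cells carried the transcript as well: 9.90% against 33.7% of fibroblasts for *Fbln7*, and 15.6% against 29.1% for *Efemp1*. After thinning these shares were 3.14% and 10.3% for *Fbln7*, and 3.52% and 8.93% for *Efemp1*, with 1.02% and 1.18% of *SM22-SmoM2* and control Schwann cells for *Fbln7*. Leaving out the highest cell of each library gave log2 ratios of -2.26 and -2.12.

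**Figure D2:**
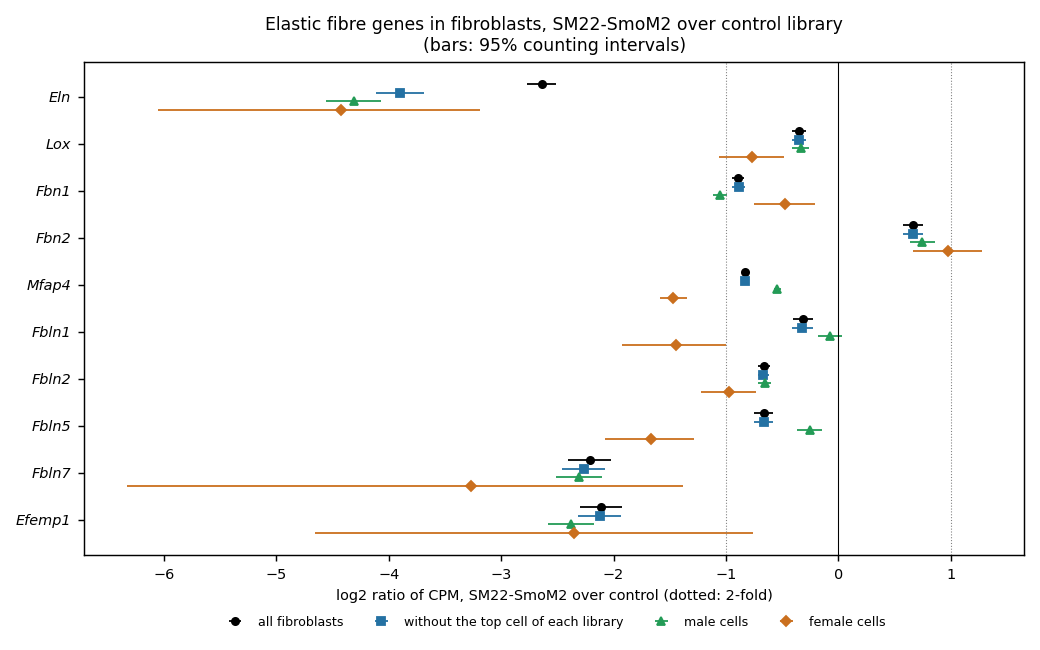
Log2 ratio of CPM in fibroblasts, *SM22-SmoM2* over control library, for the 10 members, with 95% counting intervals; dotted lines mark 2-fold. Black circles are all fibroblasts, blue squares leave out the cell with the most UMIs of the gene in each library, and triangles and diamonds are male and female cells. *Eln* moves from -2.64 to -3.90 without the highest cells, and *Fbn2* is the only member right of 0 in every set.

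The proximal promoters of *Fbln7* and *Efemp1* are shown because these genes were past 2-fold in fibroblasts and had a promoter window. No window was available for *Eln*. RefSeq (GRCm38.p6) windows of 250 bases before to 50 after the start were examined for *Fbn1*, *Fbln1*, *Fbln2*, *Fbln5*, *Fbln7* and *Efemp1*, that is 6 members. *Lox* and *Fbn2* were left out of this step and not examined. The windows shown are chr2:128863682-128863981 (plus strand) for *Fbln7* and chr11:28852955-28853254 (plus strand) for *Efemp1*, 5′ to 3′, with capitals for a match to the core of the Gli motif (GACCACCCA), the AP-1 motif (TGANTCA), the TATA box (TATAAA) or the GC box (GGGCGG), on either strand.
Fbln7: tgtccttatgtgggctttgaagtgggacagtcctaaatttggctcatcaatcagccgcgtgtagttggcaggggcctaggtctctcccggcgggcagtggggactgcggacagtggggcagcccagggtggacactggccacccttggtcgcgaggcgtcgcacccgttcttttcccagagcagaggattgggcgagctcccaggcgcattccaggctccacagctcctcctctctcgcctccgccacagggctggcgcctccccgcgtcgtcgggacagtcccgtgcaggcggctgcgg
Efemp1: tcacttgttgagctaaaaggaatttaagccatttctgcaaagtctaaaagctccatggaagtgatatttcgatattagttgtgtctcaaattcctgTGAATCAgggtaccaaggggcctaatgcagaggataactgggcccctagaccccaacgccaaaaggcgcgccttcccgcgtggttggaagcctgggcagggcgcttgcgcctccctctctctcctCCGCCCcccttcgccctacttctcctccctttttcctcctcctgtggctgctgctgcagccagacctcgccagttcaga
The *Fbln7* window had no match to these 4 motifs and a GC content of 66.0%, beside a median of 52.7% over 32851 promoters. The *Efemp1* window had an AP-1 match 154 bases before the start and a GC box on the minus strand 29 bases before it, at a GC content of 54.3%. AP-1 matches occur in 7.81% of all promoters, GC boxes in 35.7%, TATA boxes in 13.6% and the Gli core in 0.253%. The Gli core was in 0 of the windows of the 6 members. A match of letters is not a binding site.

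Fibroblasts of the libraries differed in make-up. Cells called male by Y-linked UMIs made up 74.5% of sexed control and 94.5% of sexed *SM22-SmoM2* fibroblasts. Within male cells (647 control, 783 *SM22-SmoM2*), 4 members were lower past 2-fold, beside 5.30% of all genes: *Eln* at 302 and 15.2 CPM (log2 ratio -4.31), *Fbln7* at 121 and 24.4 CPM (-2.31), *Efemp1* at 127 and 24.4 CPM (-2.38) and *Fbn1* at 646 and 311 CPM (-1.06). In male cells *Fbln1* had a log2 ratio of -0.08 with an interval that held 0 (-0.18 to 0.03). Within female cells (222 control, 46 *SM22-SmoM2*), 6 members were lower, beside 10.1% of all genes: *Mfap4* (-1.47), *Fbln1* (-1.45), *Fbln5* (-1.67), and *Eln*, *Fbln7* and *Efemp1* from 5, 2 and 3 *SM22-SmoM2* UMIs. The intervals of these last 3 were wide, at -6.05 to -3.19 for *Eln*, -6.33 to -1.38 for *Fbln7* and -4.66 to -0.76 for *Efemp1*. *Fbn2* was higher in male (+0.75) and female cells (+0.97). The differences in *Fbln7* and *Efemp1* were thus as large or larger within male cells, while *Fbln5* (-0.26 in male cells) and *Mfap4* (-0.54) were closer to 0. Male *SM22-SmoM2* fibroblasts held 146 *Eln* UMIs, so the outlying cell of 383 UMIs was not among them. Male control fibroblasts held 2758 *Eln* UMIs, and the control cell of 894 UMIs was among them. In sub-cluster 6, which held that cell, male cells had 1534 of the 1814 control *Eln* UMIs. The male *Eln* ratio therefore leaves out the highest cell of the *SM22-SmoM2* library alone. It is not like the ratio over all fibroblasts or the ratio without the highest cells, given above.

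Different sub-clusters also held most fibroblasts of each library. K-means of fibroblasts, run without the 10 members, gave 15 sub-clusters, of which 14 were kept and 1 was left out as mixed. Each is named by number and its 3 leading genes. Sub-clusters 6 (*Dlk1/Nov/Sfrp4*, 146 cells), 11 (*Angptl1/Dlk1/Thbs4*, 80 cells) and 14 (*C4b/Mmp3/Gdf10*, 44 cells) held control cells and 0 *SM22-SmoM2* cells, and sub-cluster 8 (*Nov/Dlk1/Sfrp2*) held 120 and 4. Sub-clusters 3 (*Penk/Mest/Cldn1*), 4 (*Areg/Mmp13/Penk*), 5 (*Egfl6/Wif1/Igfbp2*) and 7 (*Wif1/Penk/Egfl6*) held 125 to 192 *SM22-SmoM2* cells and 3 to 11 control cells. A sub-cluster that is mostly of 1 library may be that library rather than a kind of cell.

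The members low in *SM22-SmoM2* fibroblasts were high in sub-clusters that held few or 0 *SM22-SmoM2* cells. Control *Eln* was also high in sub-cluster 2, which both libraries shared. In the control library, sub-cluster 6 held 13.3% of fibroblasts and 43.6% of *Eln* UMIs, and sub-cluster 11 held 7.29% of fibroblasts with 17.7% of *Eln* and 40.2% of *Fbln7* UMIs. Sub-cluster 8 held 10.9% of control fibroblasts and 52.8% of *Efemp1* UMIs. In the *SM22-SmoM2* library, sub-cluster 2 (*Ctla2a/Mmp3/Mmp13*) held 11% of fibroblasts but 82.1% of *Eln* and 75.9% of *Fbln7* UMIs. In the control library it held 21.1% of fibroblasts and 21.9% of *Eln* UMIs. Without the highest cell of each library, the *Eln* shares were 45.7% for *SM22-SmoM2* sub-cluster 2 (86 of 188 UMIs) and 28.1% for control sub-cluster 6 (920 of 3271 UMIs). Control sub-cluster 2 then held 914 of the 3271 UMIs.

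Over the 18 groups of a sub-cluster and a library with at least 30 fibroblasts, *Eln* was highest in control sub-clusters 11 (900 CPM) and 6 (835 CPM), followed by sub-cluster 2 in *SM22-SmoM2* (334 CPM) and control (321 CPM) and control sub-cluster 8 (250 CPM). Without the highest cell of each group the control levels were 794 CPM in sub-cluster 11, 432 CPM in 6, 252 CPM in 2 and 209 CPM in 8, and *SM22-SmoM2* sub-cluster 2 was at 62.0 CPM. In *SM22-SmoM2* sub-clusters 3, 4, 5, 7, 9 and 10 *Eln* lay between 3.66 and 16 CPM. Levels were as low in control sub-clusters 1 (10.1 CPM), 9 (7.68 CPM), 10 (13.2 CPM) and 12 (1.54 CPM), the last being the lowest of the 18 groups.

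**Figure D3:**
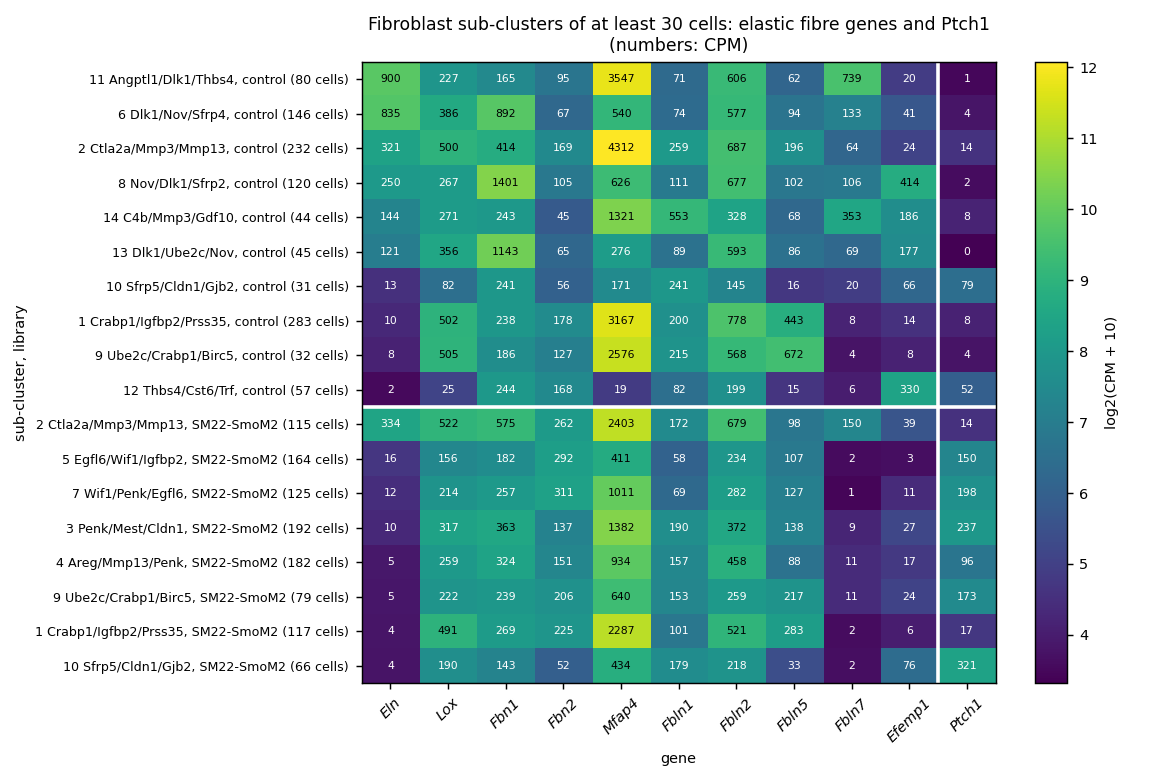
CPM of the 10 members and *Ptch1* (columns) in the 18 groups of a fibroblast sub-cluster and a library with at least 30 cells (lines, control above and *SM22-SmoM2* below the white bar, each ordered by *Eln*), coloured by log2(CPM + 10). *Eln* exceeds 100 CPM in 6 control groups and in *SM22-SmoM2* sub-cluster 2, where 383 of 469 UMIs came from 1 cell.

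The pattern over these groups differed among members, though some members shared one, as given below. *Fbln7* reached 739 CPM in control sub-cluster 11 and 353 CPM in 14, and was at most 11.1 CPM in *SM22-SmoM2* groups other than sub-cluster 2, at 150 CPM. Control sub-clusters 1, 9 and 12 were also low in *Fbln7*, at 8.33, 3.84 and 6.17 CPM. *Efemp1* was highest in control sub-clusters 8 (414 CPM) and 12 (*Thbs4/Cst6/Trf*, 330 CPM). *Fbn1* was highest in control sub-clusters 8 (1401 CPM) and 13 (*Dlk1/Ube2c/Nov*, 1143 CPM), whereas *Fbn2* was highest in *SM22-SmoM2* sub-clusters 7 (311 CPM) and 5 (292 CPM).

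*Mfap4*, *Lox* and *Fbln5* had low levels in the same place. Control sub-cluster 12 had the lowest level of all 3, at 18.5 CPM for *Mfap4*, 24.7 CPM for *Lox* and 15.4 CPM for *Fbln5*. *Mfap4* was highest in control sub-cluster 2 (4312 CPM) and *Fbln5* in control sub-cluster 9 (*Ube2c/Crabp1/Birc5*, 672 CPM) and 1 (*Crabp1/Igfbp2/Prss35*, 443 CPM). *Fbln1* was highest in control sub-cluster 14 (553 CPM). On the log2(CPM + 10) scale, the span from the lowest to the highest group was widest for *Mfap4* (7.24), followed by *Eln* (6.30) and *Fbln7* (6.11), whose lowest groups held 1 UMI each. It was least for *Fbln2* (2.35, from 145 to 778 CPM) and *Fbn2* (2.54).

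On the same scale, *Eln* and *Fbln7* had a Pearson r of 0.91 over the 18 groups, the highest of the 45 pairs of members, followed by *Lox* with *Mfap4* (0.85), *Fbln2* (0.80) and *Fbln5* (0.77). The most negative were *Efemp1* with *Fbln5* (-0.60) and with *Mfap4* (-0.58). These are descriptions: the groups share 2 libraries and differ in depth. Among 8424 genes, those most like *Eln* were *Cyb561* (0.91), *Fbln7* and *Ptgfrn* (0.88), and those most like *Fbln7* were *Ace* (0.92), *Itga2b* (0.91) and *Eln*. *Lox* was most like *Mmp23* (0.96), *Fbn1* like *Pcsk6* (0.90), *Mfap4* like *Mn1* (0.86), *Fbln2* like *C1qtnf3* (0.93), *Fbln5* like *Ddah1* (0.90), *Efemp1* like *Tmeff2* (0.87), *Fbn2* like *Cox6c* (0.84) and *Fbln1* like *Iigp1* (0.87). Of the 3 genes most like *Fbln1*, *Iigp1*, *Psmb9* and *Ifi47* are all known as interferon-induced genes.

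Only sub-clusters 1 and 2 held at least 50 cells of both libraries. In sub-cluster 1, 1 of 8 members tested was past 2-fold, beside 4.39% of genes: *Efemp1*, at 13.8 CPM in control against 6.28 CPM in *SM22-SmoM2* (48 and 9 UMIs, log2 ratio -1.13, interval -2.35 to -0.09). *Fbln1* was at 200 and 101 CPM there (-0.98) and *Fbln5* at 443 and 283 CPM (-0.64), while *Lox* did not differ beyond counting error (-0.03, interval -0.16 to 0.10). In sub-cluster 2, 2 of 10 members were past 2-fold, beside 3.54% of genes. *Fbln7* was higher, at 64.3 CPM in control against 150 CPM in *SM22-SmoM2* (183 and 211 UMIs, log2 ratio +1.23, interval 0.93 to 1.52), and *Fbln5* was lower, at 196 and 97.6 CPM (-1.01, -1.29 to -0.73). The *Fbln5* call was near the 2-fold limit and mixed the sexes. In male cells of sub-cluster 2 *Fbln5* was at 142 and 87.0 CPM and *Fbln7* at 73.0 and 163 CPM. Female control cells there had *Fbln5* at 283 CPM.

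In the same sub-cluster 2, *Eln* was at 321 and 334 CPM (+0.06, -0.11 to 0.22), but without the highest cell of each library at 252 and 62.0 CPM (-2.02, -2.36 to -1.70). Pooled within these 2 sub-clusters, only *Fbln7* was past 2-fold and it was higher (+1.05), with *Eln* at +0.027 and *Efemp1* at +0.22. In this pooled value the 3 calls made over all fibroblasts ended or turned, except that *Eln* was at -2.003 without its highest cells. In sub-cluster 1 alone *Efemp1* was lower past 2-fold. *Eln* (35 and 6 UMIs, -1.26) and *Fbln7* (29 and 3 UMIs, -1.99) were under the UMI minimum there. *Ptch1* was at 8.04 CPM in control against 16.8 CPM in *SM22-SmoM2* cells of sub-cluster 1. In sub-cluster 2 it was at 14.4 and 13.5 CPM, beside 142 CPM over all *SM22-SmoM2* fibroblasts. The matching within sub-clusters 1 and 2 therefore does not cover fibroblasts with a high *Ptch1* level.

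Sub-clusters 9 and 10 held 31 to 79 cells of each library. In sub-cluster 9 *Ptch1* was at 3.84 CPM in control against 173 CPM in *SM22-SmoM2* cells, and in sub-cluster 10 at 79.1 and 321 CPM. In the cycling sub-cluster 9, whose leading genes *Ube2c* and *Birc5* mark dividing cells, 4 of 7 members tested were lower in *SM22-SmoM2*, beside 4.47% of genes lower: *Mfap4* (2576 and 640 CPM, -2.01), *Fbln5* (672 and 217 CPM, -1.63), *Lox* (505 and 222 CPM, -1.19) and *Fbln2* (568 and 259 CPM, -1.13). In sub-cluster 10 (*Sfrp5/Cldn1/Gjb2*), 2 of 7 were higher, beside 5.25% of genes higher: *Mfap4* (171 and 434 CPM, +1.34) and *Lox* (82.4 and 190 CPM, +1.21).

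Fibroblasts were next split by whether they had a *Ptch1* UMI, as a mark of active Hh signalling within a library. In the *SM22-SmoM2* library 605 of 1050 fibroblasts had one (57.6%), with a median of 11597 UMIs against 10469 in those without. In the control library 108 of 1097 had one (9.85%), with medians of 12888 and 12458 UMIs.

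In *SM22-SmoM2* fibroblasts, 2 of 10 members were lower past 2-fold in cells with *Ptch1*, beside 2.09% of genes lower: *Eln* and *Fbln7*. The median log2 ratio of members was -0.49, beside +0.13 over all genes tested, and ratios here are read against that shift. *Fbln7* was at 10.3 CPM in cells with *Ptch1* and 42.2 CPM in cells without (76 and 202 UMIs), a log2 ratio of -2.03 (-2.43 to -1.64). The thinned shares of cells with an *Fbln7* UMI were 1.49% and 5.39%. *Eln* was at 14 and 97.8 CPM (-2.80, -3.13 to -2.49), but 383 of the 468 UMIs in cells without *Ptch1* were those of 1 cell. Without the highest cell of each group *Eln* was at 8.85 and 17.8 CPM (-1.01, -1.499 to -0.527), and 7.77% and 8.76% of the cells had an *Eln* UMI.

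Of the other members, *Mfap4* was at 888 CPM with and 1741 CPM without *Ptch1* (-0.97), *Lox* at 242 and 392 CPM (-0.69) and *Fbln2* at 329 and 495 CPM (-0.59). *Fbln5* (-0.39), *Fbn1* (-0.36) and *Fbn2* (-0.25) were nearer to 0, and *Fbln1* did not differ beyond counting error (+0.05, -0.09 to 0.19). *Efemp1* was at 26.6 CPM with and 19.4 CPM without *Ptch1* (+0.46, 0.09 to 0.83), an interval that holds the shift of +0.13 over all genes. When cells were compared within 7 sub-clusters, 0 members were past 2-fold and *Fbln7* was at +0.21.

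In control fibroblasts 0 of 10 members were past 2-fold between cells with and without *Ptch1*, beside 6.32% of 10272 genes. The intervals of 8 members lay below 0, a count with no share of all genes beside it. The median was -0.58 beside +0.03 over all genes. *Eln* was at 166 CPM with and 308 CPM without *Ptch1* (-0.89), *Fbln7* at 63.5 and 111 CPM (-0.80), *Fbn1* at 360 and 607 CPM (-0.75), *Efemp1* at 66.3 and 107 CPM (-0.69) and *Mfap4* at 1526 and 2249 CPM (-0.56). *Fbln1* was at 198 and 169 CPM (+0.23, 0.04 to 0.40). This count depended on how *Ptch1* was read: against cells with 0 UMIs, the 37 cells with at least 2 *Ptch1* UMIs were lower in 6 members, beside 8.32% of genes lower.

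**Figure D4:**
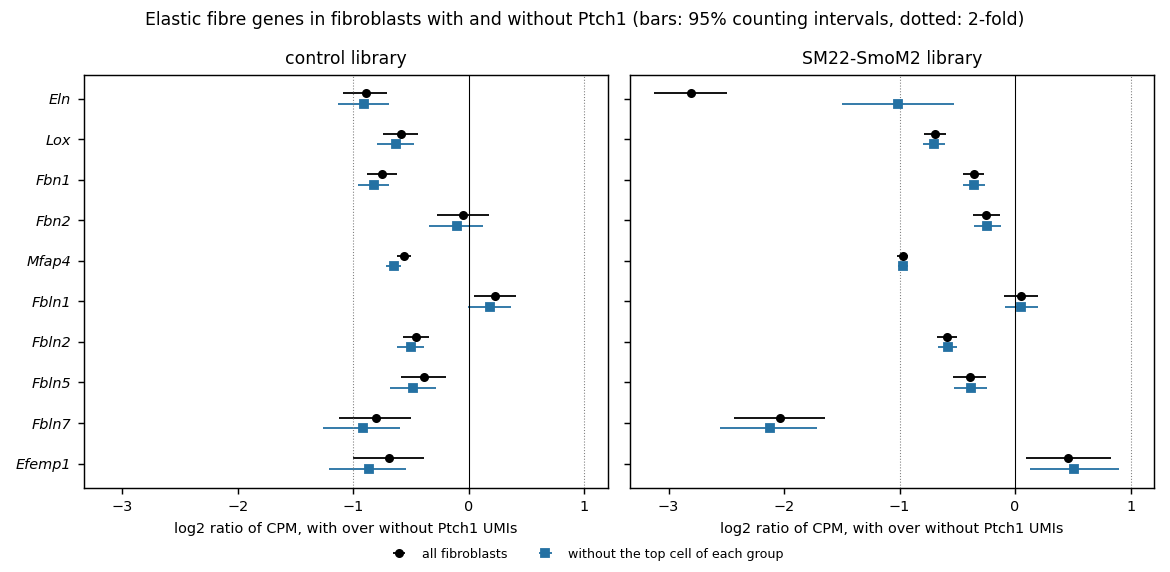
Log2 ratio of CPM of the 10 members in fibroblasts with over without a *Ptch1* UMI, in the control (left) and *SM22-SmoM2* (right) libraries, with 95% counting intervals; dotted lines mark 2-fold. Blue squares leave out the cell with the most UMIs of the gene in each group: in the *SM22-SmoM2* library *Eln* moves from -2.80 to -1.01, whereas *Fbln7* stays past 2-fold at -2.12.

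Between libraries, the levels also differed among cells without *Ptch1*. Of cells without a *Ptch1* UMI, 3 members were lower past 2-fold in the *SM22-SmoM2* library, beside 5.06% of genes: *Eln* (308 and 97.8 CPM, -1.65), *Fbln7* (111 and 42.2 CPM, -1.39) and *Efemp1* (107 and 19.4 CPM, -2.46). Of cells with one, the members lower were again *Eln* (166 and 14 CPM, -3.56), *Fbln7* (63.5 and 10.3 CPM, -2.62) and *Efemp1* (66.3 and 26.6 CPM, -1.31), beside 4.49% of genes. The *Eln* value of cells without *Ptch1* rested on the *SM22-SmoM2* cell with 383 of their 468 UMIs. Without the highest cell of each group, *Eln* was at 238 and 17.8 CPM (-3.74, -4.07 to -3.43) in cells without *Ptch1* and at 127 and 8.85 CPM (-3.84, -4.27 to -3.42) in cells with it. *Fbn2* was higher in both sets (+0.81 and +0.60), and *Lox* differed in neither beyond counting error (-0.02 and -0.13). A cell without a *Ptch1* UMI may still express the gene at this depth.

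Other genes of elastic fibre assembly were listed to set beside the members. Of 22 such genes 19 were tested in fibroblasts, and 4 were lower and 1 higher past 2-fold in the *SM22-SmoM2* library: *Loxl1*, a lysyl oxidase of elastin (645 and 283 CPM, -1.19), *Hmcn1* (98.1 and 41.9 CPM, -1.23), *Emilin2* (90.7 and 40.7 CPM, -1.16), *Adamtsl4* (14.1 and 6.34 CPM, -1.15) and, higher, *Ltbp2*, a latent TGF-β binding protein gene (2.18 and 9.31 CPM, +2.09). Of all genes tested in fibroblasts, 5.16% were lower and 4.57% higher past 2-fold. The median of the assembly genes was -0.67, with 13 intervals below 0 and 3 above, counts again without a share of all genes. Of 7 genes for enzymes that degrade elastin, 4 were lower and 0 higher, beside the same shares of all genes. The 4 were *Mmp2* (870 and 419 CPM, -1.05), *Ctsl* (801 and 397 CPM, -1.01), *Ctss* (5.70 and 1.98 CPM, -1.53) and the macrophage elastase gene *Mmp12* (3.66 and 0.494 CPM, -2.89, interval -4.40 to -1.67). *Ctss* and *Mmp12* are known from immune cells, whose markers were also lower in *SM22-SmoM2* fibroblasts, as given above. Between *SM22-SmoM2* fibroblasts with and without *Ptch1*, 2 of 18 assembly genes tested were higher, beside 3.34% of genes higher: *Ltbp4* (+1.43) and *Adamtsl5* (+1.04). *Adamts17* (-1.37) and the gelatinase gene *Mmp9* (-1.97) were lower, beside 2.09% of genes lower. These 4 genes are named after their values were seen.

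Outside fibroblasts the members were measured in endothelial cells (701 control, 270 *SM22-SmoM2*), Schwann cells (679 and 294), muscle cells (273 and 94) and immune cells (82 and 32). Fibroblasts had the highest level of all 10 members in the control and of 9 in the *SM22-SmoM2* library, where *Eln* was at 75.3 CPM in endothelial cells against 47.0 CPM in fibroblasts. The share of all genes highest in fibroblasts was not counted. Some members were close: *Fbln5* was at 214 CPM in control fibroblasts against 200 CPM in endothelial cells, and at 135 against 122 CPM in *SM22-SmoM2*. *SM22-SmoM2* *Fbln2* was at 395 CPM in fibroblasts against 335 CPM in Schwann cells. As a guide to free RNA, *Dcn* was at 1.24% to 6.08% of its fibroblast level in the control and 2.04% to 16.9% in the *SM22-SmoM2* library in these lineages. *Mfap4*, at 1.12% to 2.82% and 2.03% to 17.1%, lay near the range of *Dcn*, and its level outside fibroblasts is not read as expression.

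**Figure D5:**
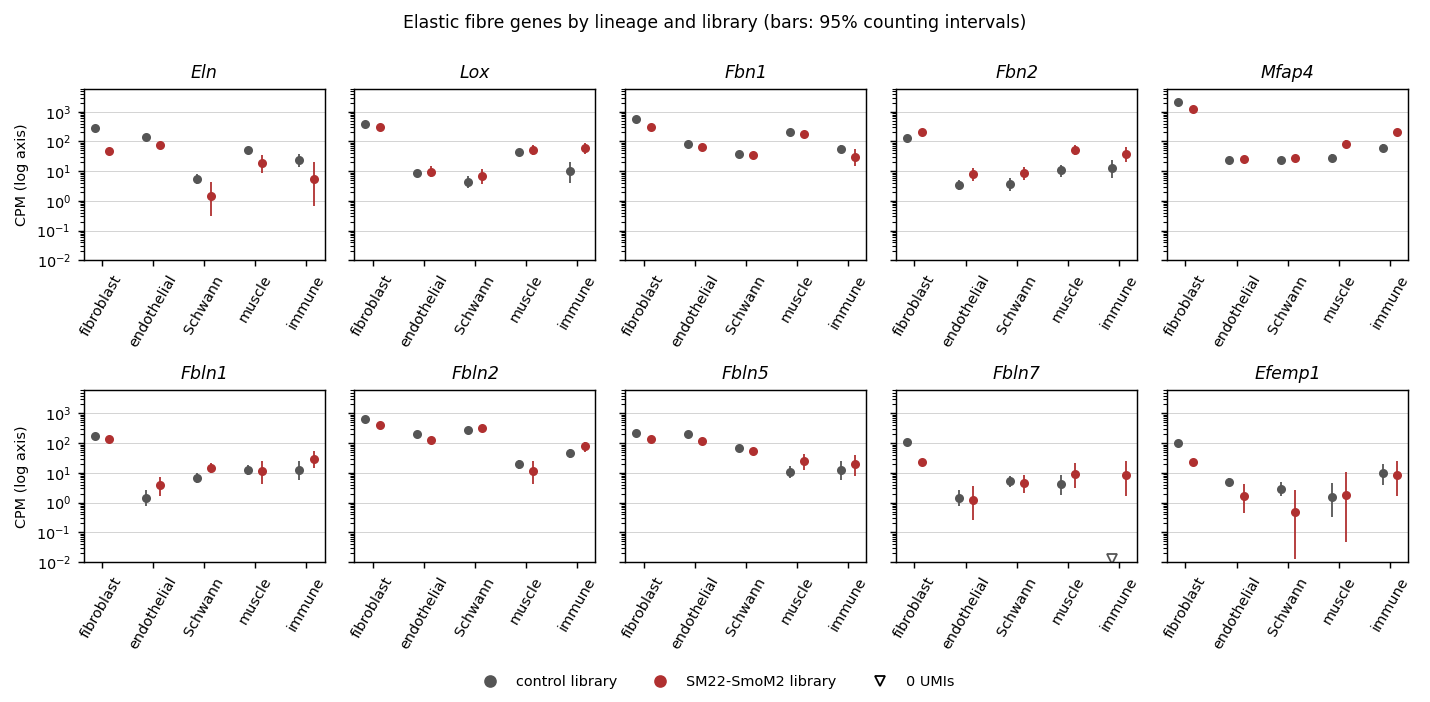
CPM (log axis) of each member in 5 lineages of the control (grey) and *SM22-SmoM2* (red) libraries, with 95% counting intervals; an open triangle marks 0 UMIs. Endothelial *Fbln5* lies near its fibroblast level in both libraries, endothelial *Eln* is above fibroblast *Eln* in the *SM22-SmoM2* library (75.3 against 47.0 CPM), and *Fbln2* is at 273 and 335 CPM in Schwann cells.

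*Eln* and *Fbln5* were well above that guide in endothelial cells. Endothelial *Eln* was at 141 CPM in control against 75.3 CPM in *SM22-SmoM2* cells (1159 and 179 UMIs), a log2 ratio of -0.91 (-1.15 to -0.68), and the highest cell held 39 and 10 UMIs. It was lower in all 4 endothelial clusters, at 195 and 98.4, 171 and 114, 115 and 38.7, and 82.9 and 13.9 CPM. Endothelial *Fbln5* was at 200 and 122 CPM (-0.71, -0.89 to -0.53), that is 93.4% and 90.6% of its fibroblast level. *Fbln2* was at 198 and 128 CPM there (-0.63). Of 6 members tested in endothelial cells 0 were past 2-fold, beside 2.19% of genes.

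In Schwann cells *Fbln2* was at 273 CPM in control against 335 CPM in *SM22-SmoM2* (1291 and 676 UMIs), a log2 ratio of +0.29 (0.16 to 0.43). *Fbln1* was the 1 of 5 members past 2-fold, beside 1.16% of genes higher, at 6.77 and 14.9 CPM (32 and 30 UMIs, +1.13, 0.37 to 1.90), or 3.93% and 10.7% of its fibroblast level. These shares lie within the range of *Dcn* over the 4 lineages, though *Dcn* was at 1.38% and 2.04% in Schwann cells, and the part of free RNA in the *Fbln1* level was not tested.

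In muscle cells 4 members could be tested, and 2 were past 2-fold, beside 4.10% of genes. *Eln*, which vascular smooth muscle is known to make, was at 52.8 CPM in control against 18.7 CPM in *SM22-SmoM2* (99 and 10 UMIs, log2 ratio -1.498, interval -2.60 to -0.56). *Fbn1* was at 209 and 172 CPM (-0.28, -0.62 to 0.05) and did not differ beyond counting error. *Mfap4* was at 28.3 and 82.3 CPM (+1.54), but 31 of the 44 *SM22-SmoM2* UMIs were in 1 cell of 20604 UMIs, against a class median of 4383, which also held 62 UMIs of *Dcn* and 72 of the mural gene *Rgs5*. Without the highest cell of each library *Mfap4* was at 25.2 and 25.3 CPM.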

How the data were processed

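Tomato+ cells from wound dermis were sequenced as 1 control and 1 *SM22-SmoM2* library. The deposited matrices give raw UMI counts, 1 for each gene in each cell, which the authors obtained with Cell Ranger and bcl2fastq, per the labels, after alignment to mm10 (GRCm38). Tool and annotation versions, the strand counted and cell calling are not given in the sources used here. Without a known strand, *Eln*, *Lox*, *Fbn1*, *Fbn2* and *Mfap4* cannot be told apart from a gene that overlaps each of them on the opposite strand. The barcode list is that of the whole kit, so barcodes shared by the libraries could not be counted. Dermis was separated in EDTA for 1 h by the labels and for a shorter time by the study's methods.

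Cells with at least 200 genes and at most 10% mitochondrial UMIs were kept. Cells were grouped by k-means (scikit-learn 1.9.0, 50 starts) on 20 components of the 2000 most variable genes, into 20 clusters, and fibroblasts into 15 sub-clusters, with 46 genes left out (the members, other elastic fibre, elastin-degrading and Hh genes). To be named as a lineage, a cluster had to hold 3 of its markers at 10 CPM and at 1.5 times their median over clusters. A fibroblast sub-cluster with at least 2 markers of another lineage among its top 10 genes was left out as mixed, a rule set after the clusters had been seen. Scrublet (scanpy 1.11.5, expected rate 5%) marked 6 control and 11 *SM22-SmoM2* barcodes, which were kept except in an alternative.

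For each class, UMIs were added over cells and divided by their total. A gene was called past 2-fold with at least 50 UMIs over both groups; 3 UMIs replaced a count of 0. Intervals (scipy 1.17.1) are exact Poisson, binomial or conditional. The calculation was tested on simulated counts. Genes named are the members, genes of the assembly and degrading lists past 2-fold in fibroblasts between libraries, the 3 genes most like each member over sub-clusters (at least 200 UMIs), *Ptch1*, *Tagln* and markers as checks, and the leading genes of sub-clusters. The members and lists were chosen with earlier results of these data known. Gene positions are from GENCODE M21, where 27645 of the 27998 IDs were found.

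Alternatives were other mitochondrial filters, UMI minimums, cluster numbers (K = 12 and 30, fibroblasts 10 and 20) and Leiden clustering at resolution 1.0, the members kept in clustering, Scrublet barcodes left out, thinning to 1500 UMIs, depth quartiles, mean CPM per cell, median-of-ratios scaling, male or female cells alone, other ways to read *Ptch1* and matched sub-clusters. Leaving out the cell with the most UMIs, the cycling or mixed sub-clusters, or adding the unnamed cluster, was chosen after seeing the data.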

Additional observations from a re-analysis of the deposited data

Results flagged for a closer look

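Some members differed in 1 direction in 1 group of cells and in the other direction in another. None of these differences between groups was tested, since each genotype had 1 library.

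Between libraries, *Mfap4* had a log2 ratio of 1.54 in muscle cells and -0.83 in fibroblasts. With 31 of the 44 *SM22-SmoM2* muscle UMIs in 1 cell, the muscle levels without the highest cells were 25.2 and 25.3 CPM, so no opposite direction remained, and *Mfap4* outside fibroblasts is not read as expression. In Schwann cells *Fbln2* was higher (0.29), and in fibroblasts it was lower (-0.66). *Fbln1* had a log2 ratio of 1.13 in Schwann cells, from 30 *SM22-SmoM2* UMIs in 24 cells, and -0.32 in fibroblasts. Its Schwann level was at 3.93% and 10.7% of that in fibroblasts, within the range of *Dcn* over the 4 lineages. In Schwann cells themselves *Dcn* was lower, at 1.38% and 2.04%, and the part of free RNA was not tested. Among fibroblast sub-clusters, *Lox* was higher in sub-cluster 10 (1.21) and lower in sub-cluster 9 (-1.19). *Mfap4* followed the same order, at 1.34 in sub-cluster 10 and -2.01 in sub-cluster 9, where the control side rested on 31 and 32 cells. *Efemp1* had a log2 ratio of 0.46 between *SM22-SmoM2* fibroblasts with and without *Ptch1*, with an interval that holds the shift of 0.13 over all genes, and -0.69 between those of the control.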

How the results depend on the processing

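The count of members past 2-fold between libraries in fibroblasts was 3 and stayed within 1.5 times under 17 of 19 alternatives. This compares the number alone, not which members were past 2-fold or their direction. Of the 19 alternatives, *Eln* was lower past 2-fold under 18, *Fbln7* under 17 and *Efemp1* under 17. The count was 6 in female cells alone (all lower) and 1, higher, within matched sub-clusters. Within matched sub-clusters *Eln* was at 0.027, *Fbln7* at 1.05 and *Efemp1* at 0.22, and without the highest cells of each sub-cluster *Fbln7* was at 1.10 and *Efemp1* at 0.15. Matching used only 2 sub-clusters, which leaves out most cells of either library. The *SM22-SmoM2* cells of these 2 had *Ptch1* at 16.8 and 13.5 CPM, beside 142 CPM over all *SM22-SmoM2* fibroblasts. The count for *SM22-SmoM2* fibroblasts with over without *Ptch1* was 2. It was 1 in male cells, 4 in female cells and 0 within sub-clusters, with or without the highest cells. Members were counted under the alternatives without the UMI minimum, and female *SM22-SmoM2* fibroblasts held 43 *Fbln1* UMIs in all. Within sub-clusters *Fbln7* was at 0.21, and at 0.14 without the highest cells, and *Eln* was at 0.17 in female cells alone. That female *Eln* ratio rested on 5 UMIs over 46 cells, under the UMI minimum. The control count of 0 became 3 with thinning to 1500 UMIs and in female cells, 2 by mean CPM per cell, 6 with at least 2 *Ptch1* UMIs, 5 with thinning to 3000 UMIs before *Ptch1* was read and 1 within sub-clusters, all lower. Shares of all genes past 2-fold are not given beside these alternative counts. The counts are therefore not read as a result about the members. The causes of the changes in count were not tested. Fibroblasts held the highest level of 10 control and 9 *SM22-SmoM2* members under all 6 alternatives run, counts that also have no share of all genes beside them. No paired analysis was possible because each genotype had 1 library. Depth limits *Eln*, *Fbln7* and *Efemp1* most, since few *SM22-SmoM2* cells held a UMI of them.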

Other observations

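A cluster of 50 *SM22-SmoM2* cells and 0 control cells reached no lineage name, with a median of 4828 UMIs and *Ptch1* at 310 CPM. It held *Fbln2* at 605 CPM, above the 395 CPM of *SM22-SmoM2* fibroblasts, and the other 9 members below their fibroblast level: *Mfap4* at 340, *Fbn1* at 138, *Fbln5* at 98.5, *Fbn2* at 50.7, *Fbln1* at 33.8, *Eln* at 25.3, *Efemp1* at 19.7, *Lox* at 11.3 and *Fbln7* at 2.81 CPM. *Fbln7* rested on 1 UMI there, *Lox* on 4, *Efemp1* on 7 and *Eln* on 9. The *Eln* level of *SM22-SmoM2* fibroblasts rested on 1 cell with 383 of 571 UMIs. Without that cell, as given above, fibroblast *Eln* lay below the level of this cluster. After thinning, 10% of the 50 cells and 2.38% of *SM22-SmoM2* fibroblasts had an *Eln* UMI.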
